A study of Mus musculus with 6 samples.

Results

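Myosin heavy chains, myosin light chains and the myosin light chain kinase were read in sorted bladder cells of newborn mice. The set held 10 genes: the heavy chains Myh11, Myh9, Myh10, Myh3 and Myh8, the light chains Myl9, Myl6, Myl4 and Myl1, and the kinase Mylk. Every probe set of the array that the platform annotation gave to just 1 of these genes was taken, which made 19 of the 34945 probe sets with 1 gene symbol. An Affymetrix probe set is a group of short probes whose brightness is summarised as 1 signal intensity, in arbitrary units. Male FVB/N mice at postnatal day 2 carried both an EGFP reporter under the SMGA (smooth muscle gamma actin) promoter and an EYFP reporter under the SMAA (smooth muscle alpha actin) promoter. Bladder tissue, which the labels place in the detrusor muscle, was digested and sorted by fluorescence. Cells with both EGFP and EYFP (double-positive, 3 arrays) were compared with cells that had EGFP and lacked EYFP (single-positive, 3 arrays). Both groups thus share the transgenes, strain, sex and age, and differ in the EYFP gate. Per the labels no sample was pooled, and whether each array had its own animal is not stated. The p-values therefore cover the spread among the 3 arrays of a group, part of which may be technical.

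Class II myosins are motors built from a pair of heavy chains, each carrying an essential and a regulatory light chain. In smooth muscle, calcium and calmodulin switch on the kinase encoded by Mylk, which phosphorylates the regulatory light chain and so starts contraction, and myosin phosphatase reverses it. Myh11 encodes the smooth muscle heavy chain, Myh9 and Myh10 the non-muscle heavy chains that most cells use for tension and division, and Myh3 and Myh8 the embryonic and perinatal heavy chains of skeletal muscle.

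The 2% trimmed mean of signal was 1500.01 on every array, and array medians lay between 147.1 and 199.8. Groups were compared with limma on log2(signal + 25.042), where a positive log2 difference means higher in the double-positive arrays. The scale understates the change of dim probe sets. One fit used the brightest probe set of each of 13464 genes, and a second used all 45037 probe sets other than controls, so that each of the 19 was tested. Both used a Benjamini-Hochberg adjusted p of 0.05 over all features as the threshold.

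The smooth muscle heavy chain, the regulatory light chain Myl9, the light chain Myl4 and the kinase were lower in the double-positive cells. The non-muscle heavy chains Myh9 and Myh10 were not, and the skeletal chains varied more within the groups than between them. In the fit over genes 4 of the 10 genes were lower past the threshold (Myh11, Myl9, Myl4 and Mylk), none was higher and 6 did not pass. Over all genes tested 6.37% passed, 4.38% as lower and 1.98% as higher. At an unadjusted limma p under 0.05, 1 of the 10 genes was higher (Myh10) and 5 were lower (Myl6 beside the 4), where 7.16% of all genes were higher and 10.4% lower. The median log2 difference was -0.99 over the 10 genes and 0.0205 over all genes tested. Groups did not overlap for 6 of the 10, 5 lower and 1 higher, where 22.4% of all genes had no overlap (11.9% lower and 10.5% higher). In the fit over probe sets 5 of the 19 were lower past the threshold and none was higher, where 1.54% of all probe sets passed, 1.07% as lower and 0.471% as higher. At an unadjusted limma p under 0.05, 2 of the 19 were higher (the brighter of Myh10 and the second of Myh9) and 8 were lower, where 4.57% of all probe sets were higher and 6.11% lower. The genes were chosen with earlier results of these data known, so these counts are a description.

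**Figure D1:**
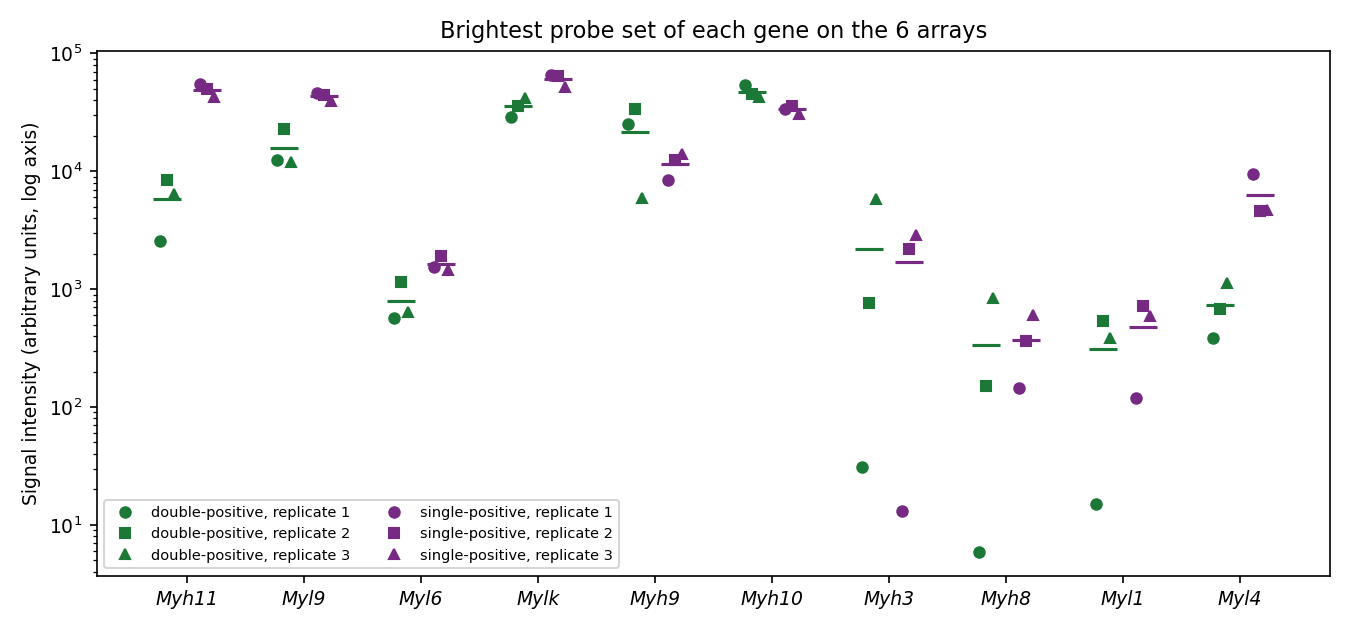
Signal intensity (arbitrary units, log axis) of the brightest probe set of each of the 10 genes on 3 double-positive (green, left) and 3 single-positive arrays (purple, right), with horizontal lines at the group means and a marker shape for each replicate number. Myh11, Myl9, Myl6, Mylk and Myl4 are lower in every double-positive array, Myh10 is higher, and Myh3, Myh8 and Myl1 are spread within both groups.

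Myh11, the smooth muscle myosin heavy chain, had the widest gap among the heavy chains. On its brighter probe set the signal was 2584, 8371 and 6363 in the double-positive arrays, against 54593, 49508 and 42753 in the single-positive arrays. Double-positive array 1 was the lowest of the 6, and the highest double-positive value was still far below the lowest single-positive one. The mean was 5773 ± 2938 in double-positive cells, against 48951 ± 5940 in single-positive cells (SD, n = 3 each), 8.48-fold lower in the double-positive cells. The log2 difference was -3.23 (SE 0.36, limma adjusted p = 0.000674 over genes). In bulk RNA of sorted cells, fewer cells that express a gene and less RNA per cell cannot be told apart. The dimmer Myh11 probe set had 147.7, 132.2 and 153.9 in the double-positive arrays, against 778.6, 591.2 and 1196 in the single-positive arrays. It too was separated by group, with a log2 difference of -2.32 (SE 0.41, limma adjusted p = 0.0330 over probe sets). That call was lost when any 1 of the 6 arrays was left out, with adjusted p up to 0.179, while the call on the brighter probe set held each time.

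Myl9 encodes the regulatory light chain of smooth muscle, the substrate of the kinase. It had 12555, 22886 and 12021 in the double-positive arrays, against 45877, 44336 and 39299 in the single-positive arrays. The highest double-positive value was below the lowest single-positive one, and double-positive array 2 was the highest of its group. The mean was 15821 ± 6124 in double-positive cells, against 43170 ± 3440 in single-positive cells (SD, n = 3 each), 2.73-fold lower in the double-positive cells. The log2 difference was -1.51 (SE 0.23, limma adjusted p = 0.00384 over genes). In the fit over probe sets it also passed (limma adjusted p = 0.0227), but not with no variance trend (0.120), nor without any 1 array other than double-positive array 2, with adjusted p from 0.0520 to 0.109. Myl6 encodes the essential light chain shared by smooth muscle and non-muscle myosin. Its signal was 568, 1159 and 644 in the double-positive arrays, against 1540.5, 1906 and 1443 in the single-positive arrays. These groups did not overlap either, and the log2 difference of -1.08 (SE 0.35) did not pass (limma adjusted p = 0.118 over genes). It passed without double-positive array 2, at -1.38 and an adjusted p of 0.0425. A further 2 probe sets are annotated to Myl6 together with other genes and were left out by the rule.

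Promoter sequence is shown for Myl9, Myl6, Myl4 and Mylk, whose signals were lower in every double-positive array, and for Myh10 and Myh3 as heavy chains that did not share this pattern. RefSeq windows on GRCm38.p6 were matched for 9 of the 10 genes, all but Myh11, and Myl6 had 2, which made 10 windows. The 250 bases before each start were searched on both strands for the CArG box, the site of serum response factor, for the E-box CANNTG and for the TATA box TATAAA. No 2 matches of different motifs overlapped in these windows. A CArG box lay in 2 of the 10 windows, that of Myl9 (161 to 152 bases before the start) and the downstream one of Myl6 (50 to 41 bases before it), while 1.47% of 32851 windows of this length hold one. An E-box lay in 6 of the 10 windows, against 66.2% of all, and TATAAA in 4, those of Myh3, Myh8, Myl1 and Myh9, against 12.4%. Only that of Myh3 was on the strand of the gene, 29 to 24 bases before the start. The windows of Myl4 and Mylk, which were lower past the threshold, and the upstream window of Myl6 hold no CArG box. Which Mylk transcript starts at its window was not determined, and no other Mylk window was searched. In the sequences given here, capitals mark a CArG box in Myl9 and in the downstream Myl6 window and TATAAA in Myh3, and the others hold neither. They lie at chr2:156775214-156775463 (plus strand) for Myl9, chr10:128493887-128494136 and chr10:128493010-128493259 (both minus strand) for Myl6, chr11:104550413-104550662 (plus strand) for Myl4, chr16:34784700-34784949 (plus strand) for Mylk, chr11:68691665-68691914 (plus strand) for Myh10 and chr11:67078050-67078299 (plus strand) for Myh3. A match is a description of these letters and not a site of binding.
Myl9: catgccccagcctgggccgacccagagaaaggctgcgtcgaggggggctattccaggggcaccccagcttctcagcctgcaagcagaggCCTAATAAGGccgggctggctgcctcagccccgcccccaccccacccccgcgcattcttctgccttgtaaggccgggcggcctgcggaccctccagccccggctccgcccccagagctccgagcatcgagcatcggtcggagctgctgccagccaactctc
Myl6, upstream window: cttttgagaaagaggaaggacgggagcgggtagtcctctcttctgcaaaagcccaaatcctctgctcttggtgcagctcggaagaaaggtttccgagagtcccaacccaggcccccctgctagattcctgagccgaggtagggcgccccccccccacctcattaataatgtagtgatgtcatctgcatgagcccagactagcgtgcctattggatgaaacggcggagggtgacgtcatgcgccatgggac
Myl6, downstream window: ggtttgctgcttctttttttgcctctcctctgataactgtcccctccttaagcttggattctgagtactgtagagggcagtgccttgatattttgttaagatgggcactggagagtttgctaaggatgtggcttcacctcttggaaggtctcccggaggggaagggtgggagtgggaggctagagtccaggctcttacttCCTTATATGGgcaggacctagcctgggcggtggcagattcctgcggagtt
Myl4: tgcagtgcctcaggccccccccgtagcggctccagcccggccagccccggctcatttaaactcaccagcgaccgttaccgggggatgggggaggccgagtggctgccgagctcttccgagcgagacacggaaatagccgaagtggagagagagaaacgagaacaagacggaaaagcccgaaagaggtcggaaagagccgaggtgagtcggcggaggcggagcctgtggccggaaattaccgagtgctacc
Mylk: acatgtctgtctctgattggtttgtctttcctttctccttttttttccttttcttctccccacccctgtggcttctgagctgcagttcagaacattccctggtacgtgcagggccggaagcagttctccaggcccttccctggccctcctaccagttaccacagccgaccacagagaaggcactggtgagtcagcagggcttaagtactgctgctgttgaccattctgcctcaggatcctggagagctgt
Myh10: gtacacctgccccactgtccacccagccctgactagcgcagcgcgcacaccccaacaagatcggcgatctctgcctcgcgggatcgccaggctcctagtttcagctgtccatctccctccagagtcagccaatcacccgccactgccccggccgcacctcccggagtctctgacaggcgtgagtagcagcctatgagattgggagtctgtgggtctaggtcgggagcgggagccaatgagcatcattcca
Myh3: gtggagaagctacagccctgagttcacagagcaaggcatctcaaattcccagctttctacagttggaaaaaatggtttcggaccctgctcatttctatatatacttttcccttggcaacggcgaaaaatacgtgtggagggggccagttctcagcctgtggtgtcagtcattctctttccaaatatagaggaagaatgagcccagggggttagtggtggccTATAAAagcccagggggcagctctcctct

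Mylk was represented by 3 probe sets, all lower on average in the double-positive arrays but by different amounts. From one gene come a long kinase, the shorter smooth muscle kinase and telokin, which lacks the kinase domain, and which transcript each probe set reads was not determined here. On the brightest the signal was 28826, 35701 and 41859 in the double-positive arrays, against 66067, 64386 and 52167 in the single-positive arrays. The groups did not overlap, and the log2 difference of -0.79 (SE 0.16, limma adjusted p = 0.0171 over genes) was the smallest of the 4 calls. This probe set ranked between 20 and 688 of 45037 on the arrays, near the top of the range. The call was lost without double-positive array 1, single-positive array 1 or single-positive array 2, with limma adjusted p of 0.0556, 0.0801 and 0.0888, and also under median centring (0.174) and with no variance trend (0.154). In the fit over probe sets it did not pass (limma adjusted p = 0.0819). As the mean over the 3 probe sets Mylk had a log2 difference of -1.73 and passed (limma adjusted p = 0.00837 over genes).

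The other two Mylk probe sets showed larger differences. The middle one had 5105, 18712 and 3102 in the double-positive arrays, against 11859, 25151 and 25803 in the single-positive arrays. These groups overlapped through double-positive array 2, and the log2 difference of -1.56 (SE 0.60) did not pass (limma adjusted p = 0.369 over probe sets). The dimmest had 265.6, 775 and 920.1 in the double-positive arrays, against 5779, 2292 and 6069 in the single-positive arrays. It was 7.21-fold lower in the double-positive cells, with a log2 difference of -2.85 (SE 0.53, limma adjusted p = 0.0395 over probe sets). That call was lost without double-positive array 1 or 2 or single-positive array 1 or 3, with limma adjusted p of 0.0909, 0.0938, 0.143 and 0.174. With no variance trend it was lost too (limma adjusted p = 0.0995). Within an array, the log2 value of the dimmest minus that of the brightest probe set changed by -2.06 between the groups. All double-positive arrays lay below all single-positive arrays in this difference (exact two-sided permutation p = 0.1, the smallest that 3 against 3 allows), a comparison chosen after its values were seen.

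**Figure D2:**
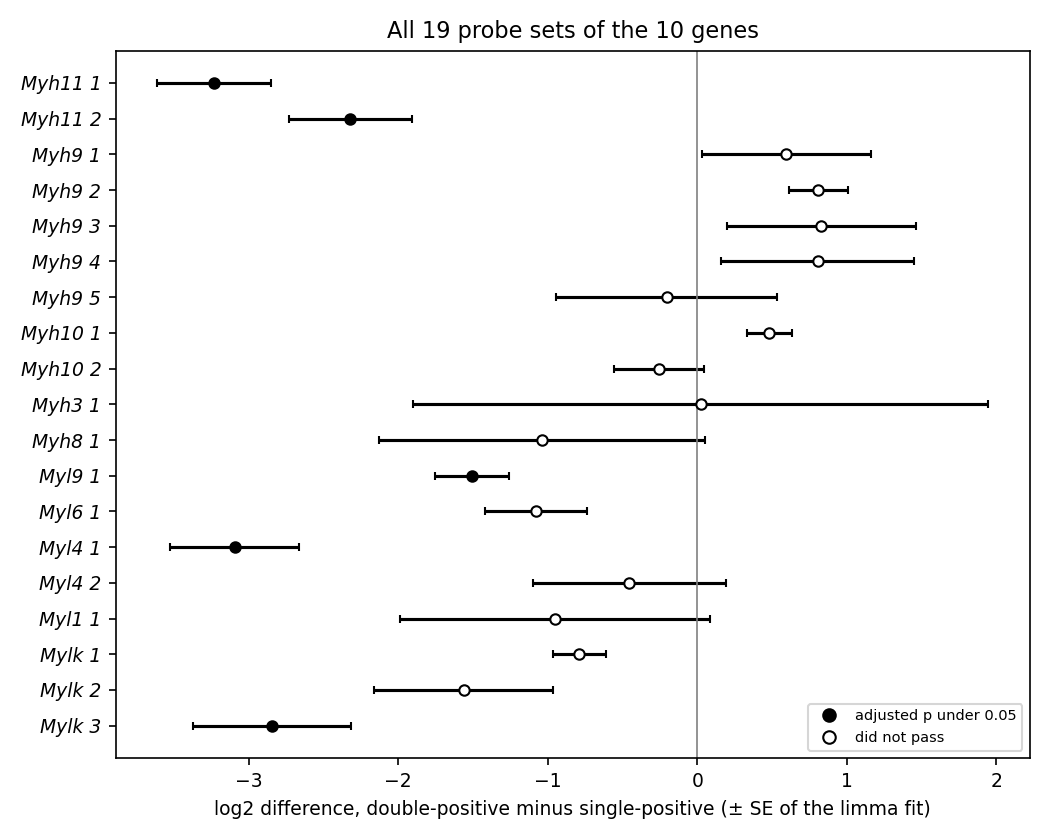
Log2 difference, double-positive minus single-positive, of each of the 19 probe sets (numbered from the brightest within a gene), with the standard error of the limma fit over probe sets as bars. Filled points mark the 5 that passed an adjusted p of 0.05, both Myh11 probe sets, Myl9, the brighter of Myl4 and the dimmest of Mylk, all of them below 0.

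The non-muscle heavy chains of the set, Myh9 and Myh10, leaned the other way on their brightest probe sets, and neither passed. Myh10, which encodes non-muscle heavy chain IIB, had 53933, 44970 and 42383 in the double-positive arrays, against 34051, 35985 and 30801 in the single-positive arrays. Every double-positive value exceeded every single-positive value, by 1.40-fold on the means. The log2 difference of 0.48 (SE 0.14) did not pass (limma adjusted p = 0.0777 over genes), and it passed without double-positive array 3 (0.55, adjusted p = 0.0406). A second Myh10 probe set stayed between 4.0 and 35.7 on the 6 arrays, under the signal of 87.6 that a gene's mean had to exceed to enter the fit over genes. With both probe sets averaged, the log2 difference of Myh10 was 0.11 (limma adjusted p = 0.899).

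Myh9, which encodes non-muscle heavy chain IIA, had 5 probe sets, and the arrays did not order alike on them. On the brightest the signal was 25415, 33656 and 5913 in the double-positive arrays, against 8399, 12415 and 14041 in the single-positive arrays. Double-positive array 3 was the lowest of all 6 here, while the other two double-positive arrays were the highest. The log2 difference was 0.60 (SE 0.53, limma adjusted p = 0.660 over genes), and without double-positive array 3 it was 1.36 and passed (adjusted p = 0.00935). The next probe set had 19050, 18830 and 15842 in the double-positive arrays, against 12592, 8239 and 10109 in the single-positive arrays. There double-positive array 3 stood with its group, the groups did not overlap, and the log2 difference was 0.81 (SE 0.20, limma adjusted p = 0.114 over probe sets). On the remaining bright pair double-positive array 3 again lay far below the other two of its group. The third probe set had 18727, 23200 and 5230 in the double-positive arrays, against 3501, 7637 and 15033 in the single-positive arrays, with a log2 difference of 0.83 (SE 0.63). The next had 14617, 24816 and 4011 in the double-positive arrays, against 3509.5, 6678 and 11598 in the single-positive arrays, with a log2 difference of 0.80 (SE 0.65). Neither passed. The last was dim, between 9.7 and 238.8, and overlapped. Of the 19 probe sets 2 had all double-positive values above all single-positive values, the brighter of Myh10 and the second of Myh9, and 7 had them all below, where 15.9% of all probe sets had no overlap (8.1% higher and 7.78% lower).

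Set against each other within an array, the smooth muscle and non-muscle heavy chains changed unequally. Levels of different probe sets cannot be compared, so only the change of their log2 difference between arrays is read. The log2 value of Myh11 minus that of Myh10 was -4.37, -2.42 and -2.73 in the double-positive arrays, against 0.68, 0.46 and 0.47 in the single-positive arrays. The change was -3.71 (exact two-sided permutation p = 0.1, the smallest possible). Since Myh11 was lower and Myh10 higher in every double-positive array, the groups had to separate here. The permutation p thus adds nothing to the results of the single genes. Myh11 minus Mylk was -3.47, -2.09 and -2.71 in the double-positive arrays, against -0.28, -0.38 and -0.29 in the single-positive arrays. It changed by -2.44 with the same exact permutation p of 0.1, so that the heavy chain signal was lower by more than that of the kinase. This holds for the brightest probe set of each gene. The dimmest Mylk probe set had a log2 difference of -2.85, nearer to that of the brighter Myh11 probe set. The dimmer Myh11 probe set had -2.32, a smaller difference than that of the dimmest Mylk probe set.

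**Figure D3:**
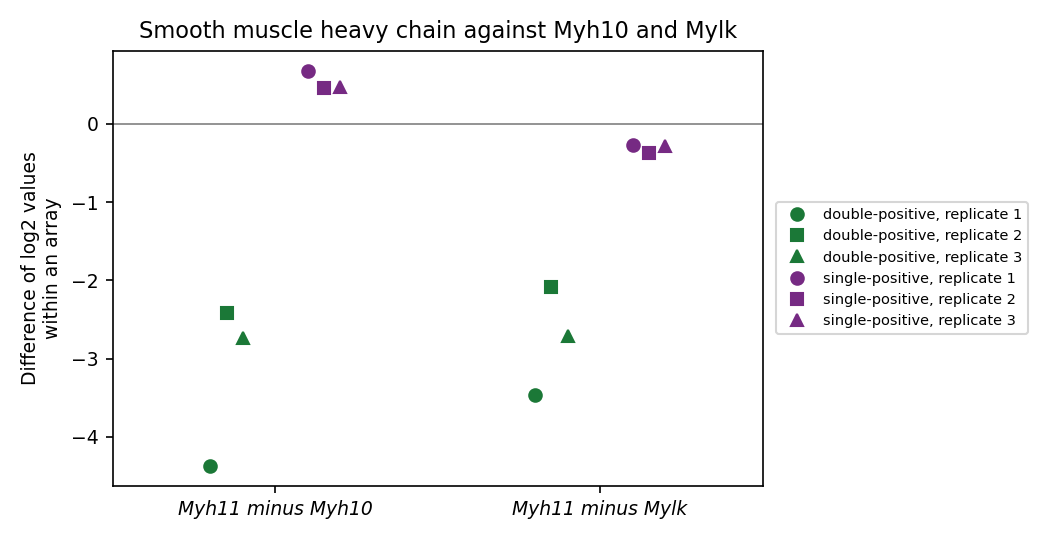
Log2 value of Myh11 minus that of Myh10 and minus that of Mylk (brightest probe sets) on each of the 3 double-positive (green, left) and 3 single-positive arrays (purple, right). For both pairs the double-positive arrays lie at -2.09 or below and the single-positive arrays at -0.38 or above.

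Among the light chains of striated muscle, Myl4 and Myl1 behaved differently. Myl4, the essential light chain of atrial and embryonic muscle, had 387.7, 682.1 and 1130.2 in the double-positive arrays, against 9462, 4621 and 4729 in the single-positive arrays. The groups were separated here too, 8.55-fold apart on the means. The log2 difference was -3.09 (SE 0.42, limma adjusted p = 0.0020 over genes), close in size to that of Myh11. In the fit over probe sets the limma adjusted p was 0.0110, and 0.0512 without double-positive array 2. A second Myl4 probe set, between 10.4 and 148.4, did not pass (log2 difference -0.45, SE 0.64). As the mean over both probe sets Myl4 had -1.77 and still passed (limma adjusted p = 0.0399). Myl1, the essential light chain of fast skeletal muscle, had 15.04, 535 and 384 in the double-positive arrays, against 118.3, 717.2 and 596.7 in the single-positive arrays. Those groups overlapped, and its log2 difference of -0.95 (SE 0.96) did not pass (limma adjusted p = 0.705 over genes).

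The skeletal heavy chains did not pass the test, and their errors were very wide. Myh3, the embryonic heavy chain, had 31.0, 766 and 5788 in the double-positive arrays, against 13.1, 2177 and 2898 in the single-positive arrays. The spread within either group covered nearly the whole range, and the highest and the second lowest value were both double-positive. The log2 difference was 0.0235 with an SE of 1.79 (limma adjusted p = 0.996 over genes). In this fit a change of several-fold either way could thus not be seen. With the replicate number added to the fit as a block, the SE was 0.50 and Myh3 still did not pass (limma adjusted p = 0.9895). Myh8, the perinatal heavy chain, had 5.9, 150.9 and 845.3 in the double-positive arrays, against 144.1, 364.2 and 599.5 in the single-positive arrays. Its log2 difference of -1.04 (SE 1.01) did not pass (limma adjusted p = 0.693 over genes). With the replicate block the SE was 0.57 for Myh8 and 0.46 for Myl1, and neither passed (limma adjusted p = 0.387 and 0.310).

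For Myh3, Myh8 and Myl1 alike, replicate 1 was the lowest array in both groups. Of all genes tested 11.7% have replicate 1 lowest in both groups, against 3 of the 10 genes of the set and 7 of the 20 skeletal muscle markers on the array. These sets are not alike, since 6 of the 20 markers were too dim to be tested, among them Chrna1, 1 of the 7. Myog (myogenin), a transcription factor of skeletal muscle differentiation and 1 of the 7, had 38.4, 448 and 365 in the double-positive arrays, against 34.8, 1405 and 985 in the single-positive arrays. Myod1, another such factor, had 18.9, 119.3 and 153.6 in the double-positive arrays, against 60.3, 411.9 and 260.2 in the single-positive arrays. Pax7, a marker of skeletal muscle progenitors, was at 3.9, 3.8 and 3.0 in the double-positive arrays, against 4.0, 188.4 and 334.1 in the single-positive arrays. Pax7 is not 1 of the 7, and its mean was too low to be tested. Acta1 and Ckm are not either, and their highest signal was in single-positive array 1, at 45133 and 4272. Myl4 did not share this pattern, since single-positive array 1 had its highest signal. The part of skeletal muscle cells in the values of Myh3, Myh8 and Myl1 was not tested, and this pattern was noticed after the values were seen.

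**Figure D4:**
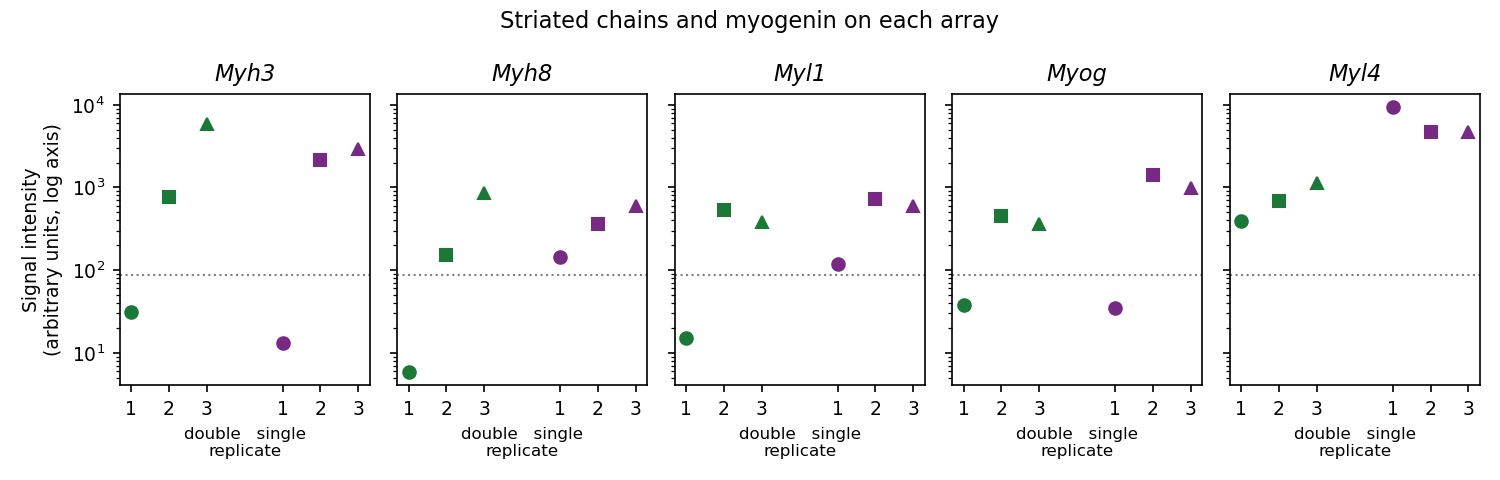
Signal intensity (arbitrary units, log axis) of Myh3, Myh8, Myl1, Myog and Myl4 on each double-positive (green) and single-positive (purple) array, by replicate number. The dotted line marks 87.6, the signal a gene's mean had to exceed to be tested. Replicate 1 is lowest in both groups for the first 4 genes, whereas Myl4 separates by group.

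Other chains, motors and regulators were read from lists, with the fit over genes. Over all genes tested in that fit 4.38% were lower and 1.98% higher past the threshold. At an unadjusted limma p under 0.05 these shares were 10.4% and 7.16%. Of 9 tested genes among other class II chains, 2 were past the threshold as lower (Myh2 and Myh6), none was higher and 7 did not pass. Myh6 entered the fit only through the single-positive arrays, and without it 1 of 8 was lower. At an unadjusted limma p under 0.05, 1 of the 9 was higher (Myl12b) and 3 were lower, the 2 and Myh1, a fast skeletal heavy chain (log2 difference -2.53, adjusted p = 0.122). Myh2, a heavy chain of fast skeletal fibres, had 253.6 ± 120.0 in the double-positive arrays, against 1900.2 ± 309.9 in the single-positive ones (SD, n = 3 each), a log2 difference of -2.88 (SE 0.41, limma adjusted p = 0.00242). Myh6, the atrial cardiac heavy chain, had 32.9, 42.7 and 9.8 in the double-positive arrays, against 181.3, 866 and 205.8 in the single-positive arrays. Since all its double-positive values lay under 87.6, it had to differ to be tested, and its values are given as a description. Myl12a and Myl12b, the regulatory light chains of non-muscle myosin, were bright. Myl12b had 42205 ± 1843 in the double-positive arrays, against 31976 ± 2381 in the single-positive ones (SD, n = 3 each), and its log2 difference of 0.40 (SE 0.13) did not pass (limma adjusted p = 0.107). Myl12a had 0.21 (SE 0.13, adjusted p = 0.466). Both lay higher in every double-positive array, where 10.5% of all genes tested lay higher without overlap. Myh14, a non-muscle heavy chain on this list, had -0.40 (SE 0.40, limma adjusted p = 0.701), and its groups overlapped.

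Of 22 tested genes that set light chain phosphorylation, 3 were lower, none was higher in limma and 19 did not pass. At an unadjusted limma p under 0.05, 0 were higher and 4 lower. Of all genes tested 4.38% were lower past the threshold, and 10.4% at the unadjusted p. Ppp1r12a, which encodes the targeting subunit of myosin phosphatase, had 11626 ± 4453 in the double-positive arrays, against 35001 ± 5029 in the single-positive ones (SD, n = 3 each). Its log2 difference was -1.64 (SE 0.25, limma adjusted p = 0.00328). Ppp1r12b, a related subunit of striated and smooth muscle, had -1.80 (SE 0.28, limma adjusted p = 0.00402), and -0.50 as the mean over its probe sets, which did not pass (adjusted p = 0.545). Camk2g, a calmodulin-dependent kinase, had -1.06 (SE 0.23, limma adjusted p = 0.0226). The Camk2g call was lost without any 1 array other than double-positive array 3, with adjusted p from 0.0561 to 0.111, and also under median centring (0.0962), with no variance trend (0.0540) and as the mean over probe sets (-0.78, adjusted p = 0.223). Rhoa and Rock1, which restrain the phosphatase, had log2 differences of -0.20 (SE 0.17) and -0.26 (SE 0.21), and neither passed. The median log2 difference was -0.23 over these 22 genes and -0.40 over the 9 other class II chains, against 0.0205 over all genes tested.

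Of 17 tested unconventional myosins, motors that do not form filaments, 1 was lower, none was higher and 16 did not pass. These counts are near the shares over all genes, 4.38% lower and 1.98% higher (10.4% and 7.16% at an unadjusted limma p under 0.05). Their median log2 difference was -0.027. Myo1f, a myosin of immune cells, was the lower one, with a log2 difference of -2.15 (SE 0.40, limma adjusted p = 0.0104), and it did not pass without single-positive array 2 (adjusted p = 0.0592). Myo6, which moves towards the minus end of actin, had 2952 ± 419 in the double-positive arrays, against 1433 ± 196 in the single-positive ones (SD, n = 3 each). The groups did not overlap, but its log2 difference of 1.03 (SE 0.27) missed the threshold (limma adjusted p = 0.0511), and it was the 1 gene of this list higher at an unadjusted p under 0.05, where 2 were lower. Among 9 tested genes of myosin folding and thick filament assembly 2 were lower, none was higher (0 higher and 2 lower also at an unadjusted limma p under 0.05) and 7 did not pass, with a median of -0.30. Myom1, the M-band protein that links thick filaments, had a log2 difference of -3.27 (SE 0.44, limma adjusted p = 0.00173). Unc45b, the myosin chaperone of muscle, had -2.35 (SE 0.37, limma adjusted p = 0.00423).

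**Figure D5:**
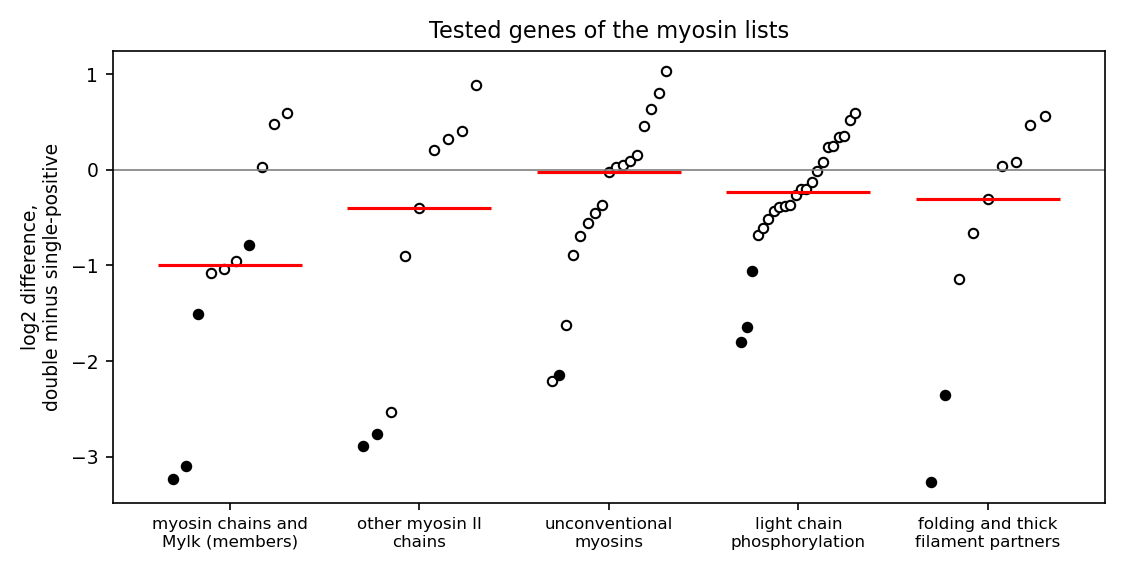
Log2 difference, double-positive minus single-positive, of the 10 genes of the set and of the tested genes of 4 further lists, with red lines at the medians. Filled points passed an adjusted p of 0.05 in the limma fit over genes, and all of them lie below 0. Among them Myh6 was tested only through its single-positive values.

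The genes whose profile over the 6 arrays lay nearest to that of Myh11 were Lyve1, Trpv2, Cass4, Myom1 and Ncf4. Likeness was the root mean square difference of log2 values after centring each gene on its own mean, and it was 0.15, 0.16, 0.20, 0.20 and 0.24 for these 5. Among the genes of the set the nearest to Myh11 was Myl4 (0.44), and the closest pair was Myl9 and Myl6 (0.25). For Myh3 the nearest were Mme, Kcnd2, Pak3, Cldn11 and Eya1, at 0.83 to 1.25, much farther than the neighbours of Myh11. The neighbours of Myh11 had log2 differences of -3.30 to -2.98, and those of Myh3 had -1.30 to 0.95. They were chosen by likeness on these same arrays, which limits how far these values can lie from those of their target.

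Markers of the labelled tissue and of other cells were read beside these results. Over all genes tested 4.38% were lower and 1.98% higher past the threshold (10.4% and 7.16% at an unadjusted limma p under 0.05). Of 12 smooth muscle markers 8 were lower in the double-positive arrays, none was higher and 4 did not pass, and all 12 had log2 differences below 0. Acta2 and Cald1, the brightest of them, had log2 differences of -0.065 and -0.27, and neither passed. The lowest was -4.54 (Synm). Actg2 encodes smooth muscle gamma actin, whose promoter drives the EGFP that both groups share. It had 10595 ± 3281 in the double-positive arrays, against 60131 ± 8405 in the single-positive ones (SD, n = 3 each). Its log2 difference was -2.54 (SE 0.22, limma adjusted p = 0.0002455). Acta2 is the alpha actin gene of the EYFP promoter. Lists of other cell types also held lower genes: 12 of 12 leukocyte markers, 5 of 8 endothelial, 7 of 10 urothelial and 4 of 6 nerve and Schwann cell markers tested were lower. Krt15 (urothelium) and Snap25 (nerve) lay under 87.6 on every double-positive array and were tested only through the single-positive group. Without them 6 of 9 urothelial and 3 of 5 nerve and Schwann cell markers were lower. Summed leukocyte signal was 12501 to 20228 in the double-positive arrays, against 91980 to 130384 in the single-positive arrays. That of endothelium was 5659 to 8708 in the double-positive arrays, against 32386 to 42004 in the single-positive arrays. For urothelium it was 2101 to 4083 in the double-positive arrays, against 19631 to 27670 in the single-positive arrays, and for nerve and Schwann cells 1351 to 2164 in the double-positive, against 10413 to 14621 in the single-positive arrays. Smooth muscle markers summed to 160365 to 214235 in the double-positive arrays, against 332423 to 411603 in the single-positive arrays.

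Of 14 tested skeletal muscle markers 5 were lower, Acta1 and Ckm among them, and 9 did not pass. At an unadjusted limma p under 0.05, 7 were lower and 0 higher, where 10.4% of all genes were lower and 7.16% higher. Past the threshold these shares were 4.38% and 1.98%. The summed signal of the skeletal muscle markers without Acta1, over 19 markers, was 1827, 4195 and 4652 in the double-positive arrays, against 14014, 16662 and 16562 in the single-positive arrays. Of 6 tested cardiac markers, 2 were lower (Actc1 and Tnnt2), 1 was higher (Tbx5) and 3 did not pass. At an unadjusted limma p under 0.05, 3 were lower and 1 higher. Tbx5 lay under 87.6 on every single-positive array, and without it 2 of 5 were lower and none higher. The summed cardiac signal was 1878 to 9576 in the double-positive arrays, against 69948 to 79612 in the single-positive arrays. Without Actc1 and Tnnt2 it was 702.7, 1202 and 1016 in the double-positive arrays, against 1546, 1507 and 1640.0 in the single-positive arrays. Of 6 pericyte markers 2 were lower and none was higher. At an unadjusted limma p under 0.05, 3 were lower and 1 higher, Pdgfrb (log2 difference 0.49). Their sums were 24786 to 43471 in the double-positive arrays, against 54225 to 58591 in the single-positive arrays. None of 6 fibroblast markers passed in limma, while at an unadjusted p under 0.05, 2 were higher (Col1a1 and Pdgfra) and 0 lower. Their sums overlapped, 262916 to 365682 in the double-positive arrays, against 266692 to 310690 in the single-positive arrays. No marker read 0 on any array, and Cacna1s, a skeletal muscle calcium channel, stayed under 87.6 on all 6. The part of these cell types in the differences of the myosin genes was not tested.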

How the data were processed

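Per the labels' protocols, RNA of 6 samples was extracted with RNeasy, amplified in 2 rounds and labelled with biotin, and each sample had its own Affymetrix MOE430 array. The deposited values are linear intensities, 1 for each probe set and array. The submitters' processing notes name GCOS, Affymetrix's own software. Which of its algorithms and which target level were used is not known from the labels. Trimmed means (2% at each end) were equal on all arrays, so the deposited intensities had been brought to a common level, and unequal RNA content of the cells would not show.

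Samples were grouped by the reporter state in their titles. All 10 genes matched a RefSeq gene by Entrez identifier with the same symbol. The offset 25.042 is the 20th percentile of all values. Array medians differed 1.36-fold, under the limit of 1.5 for rescaling. The fit over genes kept 13464 of 18193 genes, those whose brightest probe set had a mean above the 40th percentile (6.82 on the log2 scale, a signal of 87.6). All 10 genes of the set passed this filter, and 16 of their 19 probe sets lay above it.

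The groups were set against each other in limma 3.58.1 (R 4.3.3) by lmFit and eBayes, letting the prior variance follow the mean level. P-values were two-sided, and the code was tested on simulated data. There the fit over genes called 60 genes, and recovered 7% of log2 changes of 1 and 53% of changes of 2. The fit over probe sets recovered 0% and 9%. A gene that did not pass is thus not shown to be unchanged. The gene set, the lists and the tests were chosen with earlier results of these data known. Named genes are all 10 of the set, list members that passed or had the 2 smallest p, the 2 brightest markers of a list, and the 5 nearest profiles without clone names. Myh1, Myh14, Myl12a, Myl12b, Rhoa, Rock1 and markers other than the brightest were named after their values were seen. Alternatives covered scaling, offsets, filters, probe set choice, the variance trend, array weights, a replicate block and leaving out each array. At most 13 probe sets other than controls had exactly the same deposited value, with no tolerance, on a pair of arrays. No scan date or batch is given in the labels.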

Additional observations from a re-analysis of the deposited data

How the results depend on the processing

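Of the 4 calls over genes, Myh11 (log2 difference -3.67 to -2.73), Myl9 (-1.81 to -1.34) and Myl4 (-3.46 to -1.77) kept direction and passed under all 16 alternatives, while Mylk (-1.73 to -0.65) kept its direction and did not pass under 5. Without 1 array, 3 to 5 genes of the set were lower. Higher genes of the set numbered 1 in place of 0 with quantile normalization, array weights or the replicate block, and 0 to 2 without 1 array. For Myh10, log2 difference 0.48 with the replicate block, the adjusted p was then 0.0298, and the dimmer Myh11 probe set no longer passed with it (0.0713). Deviations of same-numbered arrays correlated at 0.092, 0.025 and -0.065, so the numbers were not taken to pair the samples, and the unconventional myosins lower with the block numbered 2. For Myh3, Myh8 and Myl1 the SE fell with the block, and none of them passed. Lower probe sets of the set numbered 3 with no variance trend and 2 to 4 without 1 array, and 1 was higher with the filter at the 60th percentile (Myh9). Over all features, array weights gave 435 higher and 910 lower genes and no trend gave 122 higher probe sets. Without 1 array there were 160 to 348 higher and 303 to 736 lower genes, and 80 to 189 higher and 153 to 482 lower probe sets, in fits with fewer samples.

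Among the lists, 1 unconventional myosin was higher with quantile normalization, the larger offset, the stricter filter or array weights, and 2 were lower with array weights (0 to 2 without 1 array). For the other class II chains 1 was lower with the stricter filter or the mean of probe sets, where Myh6 was not tested, 1 was higher with array weights, and 1 to 3 were lower without 1 array. For light chain phosphorylation 1 was lower with the mean of probe sets.

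Signs turned only for genes and probe sets that had not passed. Myh3 had -0.022 with quantile normalization, -0.067 with the larger offset, and -1.88 (over genes) and -1.20 (over probe sets) with array weights. Leaving out 1 array gave Myh3 values from -2.0 to 1.78, Myh8 from -2.23 to 0.18, Myl1 from -1.70 to 0.24, the fifth Myh9 probe set from -0.97 to 0.50, the dimmer Myh10 probe set from -0.415 to 0.040 and the dimmer Myl4 probe set from -1.01 to 0.046. Myh3 turned below 0 without double-positive array 2 (-0.13) or 3 (-1.57) or single-positive array 1. Myh8, Myl1 and the dimmer Myl4 probe set turned above 0 without double-positive array 1. The cause was not tested. The number of arrays limits the precision.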
